A study of Mus musculus with 8 samples.

Results

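Chemokines are small secreted proteins that direct the movement of leukocytes, and they act through receptors coupled to G proteins on the cells they attract. Ligands are grouped by the spacing of their first cysteines into CC, CXC, CX3C and XC classes, and atypical receptors take ligands up without signalling through G proteins. Endothelium displays chemokines bound to heparan sulphate on its luminal surface and makes several of them itself, among them Cxcl12, Cxcl16 and the membrane-bound Cx3cl1.

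The genes described here are the 56 chemokine ligand and receptor genes of a mouse transcriptome array, out of 30063 genes whose probe set carries a single gene symbol. They were chosen by symbol: Ccl, Cxcl, Ccr, Cxcr or Ackr followed by a digit, and Cx3cl1, Cx3cr1, Xcl1 and Xcr1, without the platelet chemokine genes Pf4 and Ppbp. Each is measured by 1 probe set: 35 are ligand genes, 20 are receptor genes and 1 is the pseudogene Ccl19-ps1. RefSeq annotates Cxcl11 as a transcribed pseudogene in its mouse reference strain.

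RNA came from the luminal lining of thoracic aortas of female mice that all carried Cdh5-CreERT2, a tamoxifen-inducible recombinase driven by an endothelial promoter, and floxed alleles of the transcription factor gene Mef2c (Mef2c f/f). At 10 weeks of age 4 mice were given tamoxifen on 5 days to delete Mef2c (EKO), and 4 littermates were given the vehicle alone, sunflower seed oil with 10% ethanol (control). Aortas were taken on day 14 after the first injection, TRIzol was flushed through the lumen, and each array held RNA of a single aorta. The recombinase was present in both groups and tamoxifen was given only to EKO mice, so the deletion and the drug cannot be told apart. The study's title gives its subject as the transcriptome of aortic endothelium that lacks Mef2c.

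Values are log2 expression, and a difference is EKO minus control on that scale. The level filter kept genes whose mean over the 8 arrays exceeded 6.14, the median probe set, and limma was run on those: 16232 genes, 23 of them chemokine genes. The medians of the tested genes lay between 8.43 and 8.53 over the arrays. Control probe sets marked neg on the array had medians between 7.34 and 7.45 over the arrays, and only 9 of the 56 chemokine genes had a mean above their overall median of 7.34. Most of the chemokine values below are therefore close to or under that median. The medians of all probe sets, between 6.06 and 6.24 over the arrays, also lay under it. Whether the neg median marks a background level was not tested. The endothelial marker list averaged 13.43 ± 0.12 in EKO and 13.42 ± 0.07 in control aortas (SD, n = 4 each), with 7 of its 9 measured genes above the neg median. The 2 measured erythroid genes averaged 10.36 to 10.77 on EKO arrays and 10.55 to 12.18 on control arrays, and the part of blood content in the values below was not tested. Mef2c read 9.56, 9.73, 9.66 and 10.03 on EKO arrays 1 to 4 and 9.62, 9.79, 9.88 and 9.80 on control arrays 1 to 4, a difference of -0.03 (SE 0.11, limma adjusted p = 0.946). The labels do not name the floxed exons, and which exons the probe set reads was not analysed here, so this value does not check the deletion. In RNA flushed from a vessel, fewer cells of a type and less RNA per cell cannot be told apart.

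No chemokine gene passed the threshold of 0.05 on limma's adjusted p. Of the 23 tested genes 0 passed, as did 0 of the 16232 genes in all (0%), and the smallest adjusted p among the chemokine genes was 0.478. At an unadjusted p under 0.05 there were 3 chemokine genes, beside 8.93% of all tested genes. Ccl17 and Cxcr3 were the higher ones in EKO aortas, beside 5.42% of all tested genes, and Cxcl13 the lower, beside 3.51%. Groups did not overlap for 3 of the 23, Cxcl13 lower and Ccl17 and Cxcl17 higher in EKO aortas, beside 6.08% of all tested genes (3.41% higher and 2.67% lower). Among the tested chemokine genes 19 read higher and 4 lower in EKO aortas, with a median difference of 0.18. The median was 0.088 without EKO array 2 and 0.097 after quantile normalization. Over all tested genes 44.9% read higher and the median was -0.02. That median was -0.0065 without EKO array 2 and -0.011 after quantile normalization. Cxcr3 and Cxcr4, both among the 19, passed the level filter only through their EKO values (control means 6.03 and 5.88).

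**Figure D1:**
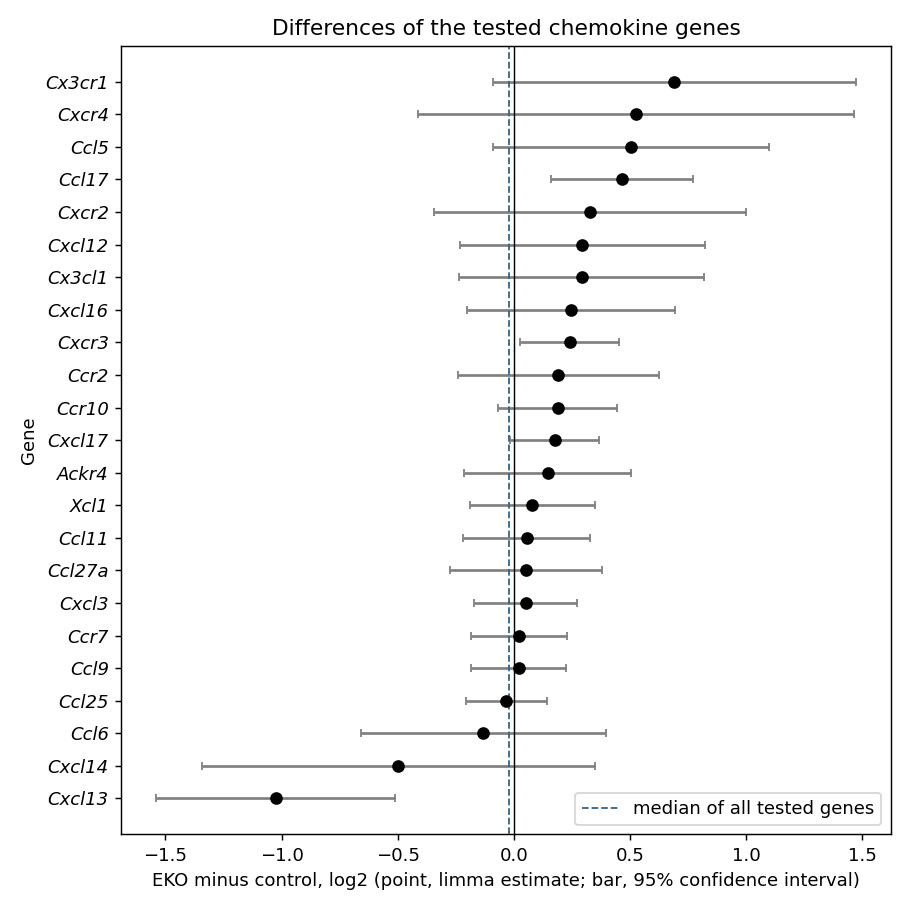
Differences of the 23 tested chemokine genes, EKO minus control in log2 units on the horizontal axis, with limma's 95% confidence intervals as bars. The interval lies below 0 for Cxcl13 (-1.54 to -0.51) and above 0 for Ccl17 and Cxcr3, and none of the genes passed after adjustment.

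Without a level filter groups did not overlap for 4 of the 56 genes, Cxcl11 being the fourth, beside 5.91% of all symbols. Over all 56 genes, 45 read higher in EKO aortas, beside 59.4% of all symbols. That count depended on the scaling of the arrays: it was 33 of 56 (48.3% of all symbols) after quantile normalization and 31 of 56 (38.1%) with arrays centred on their medians. It was 39 of 56 (57.8% of all symbols) without EKO array 2. The array on which a gene read highest was not spread evenly. EKO array 2 was highest for 23 of the 56 genes and lowest for 0, where it was highest for 24.6% and lowest for 14.0% of all symbols. It was highest for 8 of the 23 tested chemokine genes, beside 15.4% of tested symbols, and for 15 of the 33 genes under the filter, beside 35.5% of such symbols. It was lowest for 22.6% of tested symbols and for 3.86% of those under the filter.

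Cxcl13, which attracts B cells through its receptor Cxcr5, had the smallest p of the family. It read 7.58, 7.20, 7.30 and 6.99 on EKO arrays 1 to 4, against 8.85, 7.77, 8.43 and 8.12 on control arrays 1 to 4. All EKO arrays lay below all control arrays, and the lowest control value was that of control array 2. EKO aortas averaged 7.27 ± 0.24 and control aortas 8.29 ± 0.46 (SD, 4 arrays each). Cxcl13 was thus 2.04-fold lower in EKO aortas, by -1.03 on the log2 scale (SE 0.22), with an unadjusted p of 0.00156 and a limma adjusted p of 0.478. The difference stayed between -1.20 and -0.84 with each array left out in turn. Cxcr5 was under the level filter and averaged 4.94 ± 0.17 in EKO and 4.93 ± 0.12 in control arrays. B cell markers read low throughout: 0 of the 5 measured lay above the neg median, and their mean per array ranged from 5.98 to 6.04 in EKO and from 5.89 to 6.44 in control arrays. Means of the fibroblast list ranged from 8.24 to 8.86 in EKO arrays, with 5 of 7 measured genes above the neg median. On control arrays 1 to 4 they were 8.52, 8.63, 9.12 and 9.14. Means of the mesothelial list ranged from 5.80 to 6.68 in EKO arrays, with 1 of 5 above it. On control arrays 1 to 4 they were 6.25, 5.98, 6.31 and 8.26. The part of these cell types in the Cxcl13 values was not tested.

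Ccl17, a ligand of the T cell receptor Ccr4, read 6.48, 7.04, 7.04 and 6.72 on EKO arrays 1 to 4 and 6.46, 6.33, 6.22 and 6.42 on control arrays 1 to 4. The groups did not overlap, although EKO array 1 lay just above control array 1. The difference was 0.46 (SE 0.13, limma adjusted p = 0.499), and 0.39 without EKO array 2. All 8 values lay under the neg median. Ccl22, the other ligand of Ccr4, averaged 5.37 ± 0.12 in EKO and 5.22 ± 0.12 in control arrays, and Ccr4 itself 4.43 ± 0.14 in EKO and 4.38 ± 0.13 in control arrays. Both lay under the level filter, and the limma fit without it gave adjusted p of 0.608 for Ccl22 and 0.869 for Ccr4. Dendritic cells are a known source of Ccl17. Their marker list averaged 6.96, 6.94, 6.81 and 7.01 on EKO arrays 1 to 4 and 6.81, 6.57, 6.52 and 6.85 on control arrays 1 to 4. In the list 2 of 6 genes lay above the neg median, and its part in the Ccl17 values was not tested.

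**Figure D2:**
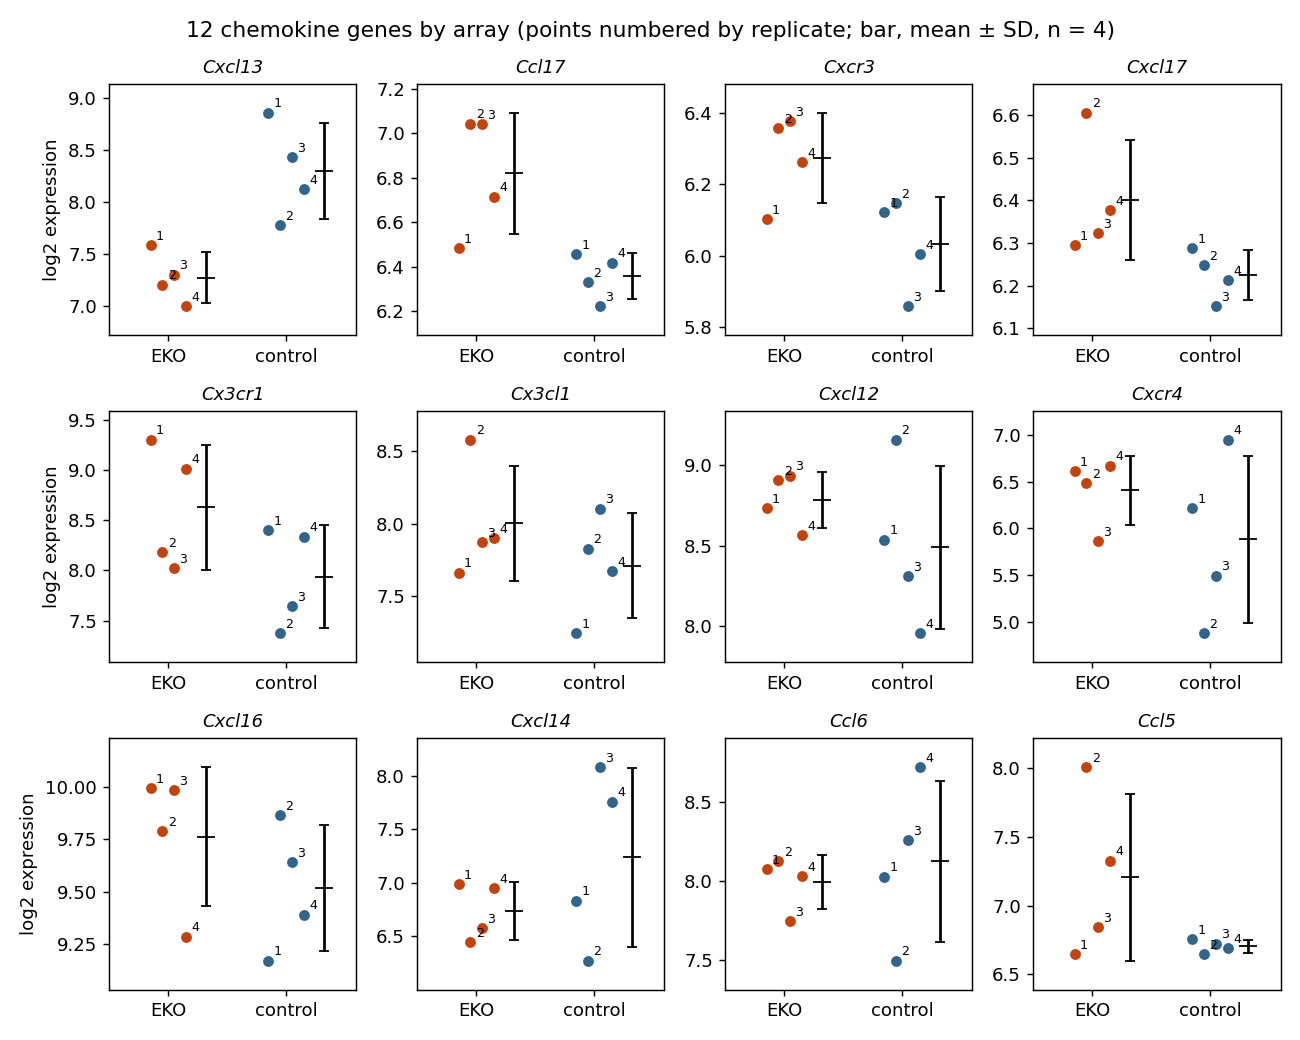
Log2 expression of 12 chemokine genes on each array, EKO left and control right, with points numbered by replicate and bars for the mean ± SD (n = 4). Cxcl13, Ccl17 and Cxcl17 separate the groups; in the other 9 genes the groups overlap.

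The sequences just upstream of 4 genes are given because the results turn on them: Cxcl13 and Ccl17 had the smallest p of the family, and Cxcl9 and Cxcl10 stood out together on EKO array 2, as described below. Each run is the 250 bases before the RefSeq transcript start on the gene's own strand, in assembly GRCm38.p6. Cxcl13 lies at chr5:95956689-95956938 (plus strand), Ccl17 at chr8:94810203-94810452 (plus), Cxcl9 at chr5:92328080-92328329 (minus) and Cxcl10 at chr5:92348890-92349139 (minus). Capitals mark matches on either strand to the interferon-stimulated response element core (GAAA, any 2 bases, GAAA), the gamma-activated sequence core (TTC, any 3 bases, GAA), the NF-kB letters (GGG, any 3 bases, TTCC) or the MEF2 consensus.
Cxcl13: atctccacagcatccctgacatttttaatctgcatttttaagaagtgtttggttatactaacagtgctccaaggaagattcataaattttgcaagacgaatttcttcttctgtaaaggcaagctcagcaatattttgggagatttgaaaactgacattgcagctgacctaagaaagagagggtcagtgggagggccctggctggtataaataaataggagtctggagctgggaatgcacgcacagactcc
Ccl17: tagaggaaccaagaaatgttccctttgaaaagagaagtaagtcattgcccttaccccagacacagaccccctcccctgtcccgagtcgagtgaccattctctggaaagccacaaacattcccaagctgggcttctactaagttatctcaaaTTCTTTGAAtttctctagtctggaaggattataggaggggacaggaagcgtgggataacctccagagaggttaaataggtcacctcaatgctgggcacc
Cxcl9: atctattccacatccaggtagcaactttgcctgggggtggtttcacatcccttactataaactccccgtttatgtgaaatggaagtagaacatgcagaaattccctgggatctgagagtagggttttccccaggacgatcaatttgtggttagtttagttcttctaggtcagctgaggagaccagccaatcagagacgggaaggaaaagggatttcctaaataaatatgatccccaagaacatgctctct
Cxcl10: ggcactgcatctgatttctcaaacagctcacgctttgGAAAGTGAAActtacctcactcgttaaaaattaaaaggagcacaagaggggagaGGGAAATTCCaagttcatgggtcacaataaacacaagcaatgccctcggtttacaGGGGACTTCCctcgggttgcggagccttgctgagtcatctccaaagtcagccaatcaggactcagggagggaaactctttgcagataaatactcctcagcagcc
The Cxcl10 window held 1 match to the response element core and 2 to the NF-kB letters, the Ccl17 window held 1 to the gamma-activated core, and the letters searched were not in the windows of Cxcl9 and Cxcl13. RefSeq promoters were found for 41 of the 56 genes, 45 windows in all. Of these 9 held the NF-kB letters (beside 4.65% of all 32851 mouse windows of this length), 3 the response element core (beside 2.98%), 4 the gamma-activated core (beside 7.02%) and 0 the MEF2 consensus (beside 1.69%). A match describes the letters and is not a bound site.

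The interferon-inducible genes Cxcl9, Cxcl10 and Cxcl11, of the ligand group that draws activated T cells through Cxcr3, stood highest on EKO array 2. Cxcl9 read 5.01, 8.67, 4.76 and 5.26 on EKO arrays 1 to 4, against 4.85, 4.55, 4.79 and 4.77 on control arrays 1 to 4. EKO array 2 lay 3.41 above the next highest array, and no other of the 30063 symbols exceeded all other arrays by as much there. Cxcl10 read 4.78, 5.65, 4.66 and 4.62 on EKO arrays and 4.55, 4.67, 4.56 and 4.49 on control arrays. Cxcl11 read 5.27, 6.07, 5.46 and 5.27 on EKO arrays and 5.17, 5.25, 5.22 and 5.14 on control arrays. Its groups did not overlap, although EKO arrays 1 and 4 lay just above control array 2. In all 3 genes EKO array 2 was the highest of the 8. Without it the differences were 0.27 for Cxcl9, 0.12 for Cxcl10 and 0.14 for Cxcl11, against 1.18, 0.36 and 0.32 with it. The 3 genes are neighbours on chromosome 5 and all lay under the level filter. In the limma fit without that filter their adjusted p was 0.617 for Cxcl9, 0.602 for Cxcl10 and 0.586 for Cxcl11. Their receptor Cxcr3 was tested and differed by 0.24 (SE 0.09, unadjusted p = 0.0309, limma adjusted p = 0.545). It read 6.10, 6.36, 6.38 and 6.26 on EKO arrays and 6.12, 6.15, 5.86 and 6.01 on control arrays, and passed the level filter only through its EKO values.

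Ccl5, a chemokine made by activated T cells and NK cells, was likewise highest on EKO array 2. It read 6.65, 8.01, 6.84 and 7.33 on EKO arrays, against 6.76, 6.64, 6.72 and 6.69 on control arrays, a difference of 0.50 (SE 0.26, limma adjusted p = 0.600) that was 0.24 without EKO array 2. EKO arrays 2, 3 and 4 lay above all control arrays and EKO array 1 within them. Cxcr2, the receptor that guides neutrophils, read 6.79, 8.18, 7.13 and 7.37 on EKO and 6.83, 6.82, 6.95 and 7.56 on control arrays. Its values overlapped (difference 0.33, SE 0.29, limma adjusted p = 0.725), and the difference was 0.06 without EKO array 2. Ccr1, a receptor of monocytes and neutrophils, read 6.26 on EKO array 2 and between 5.26 and 5.74 on the other 7 arrays.

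Several lists moved with these genes. The interferon response list averaged 7.79, 8.58, 7.67 and 7.85 on EKO arrays 1 to 4 and 7.64 to 7.78 on control arrays, with 7 of its 11 measured genes above the neg median. For 10 of the 11 the highest array was EKO array 2, while Rsad2 was highest on control array 3 (10.97, and 10.30 on EKO array 2). The neutrophil list averaged 6.23, 8.35, 6.55 and 6.84 on EKO arrays and 5.87 to 7.16 on control arrays, with 3 of 8 genes above the neg median. The T cell and NK cell list averaged 6.57, 7.37, 6.45 and 6.73 on EKO arrays and 6.25 to 6.76 on control arrays, and only Nkg7 of its 9 measured genes had a mean above the neg median. EKO array 2 was the highest array for 7 of the 9, among them Cd3e (7.61, and 6.17 to 6.80 elsewhere). The other genes, Gzma and Klrb1c, were highest on control array 3, and Klrb1c read 5.79 on EKO array 2 and 5.60 to 6.54 elsewhere. The part of these cells, and of the high place of weak probe sets on EKO array 2, in the chemokine values was not tested.

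**Figure D3:**
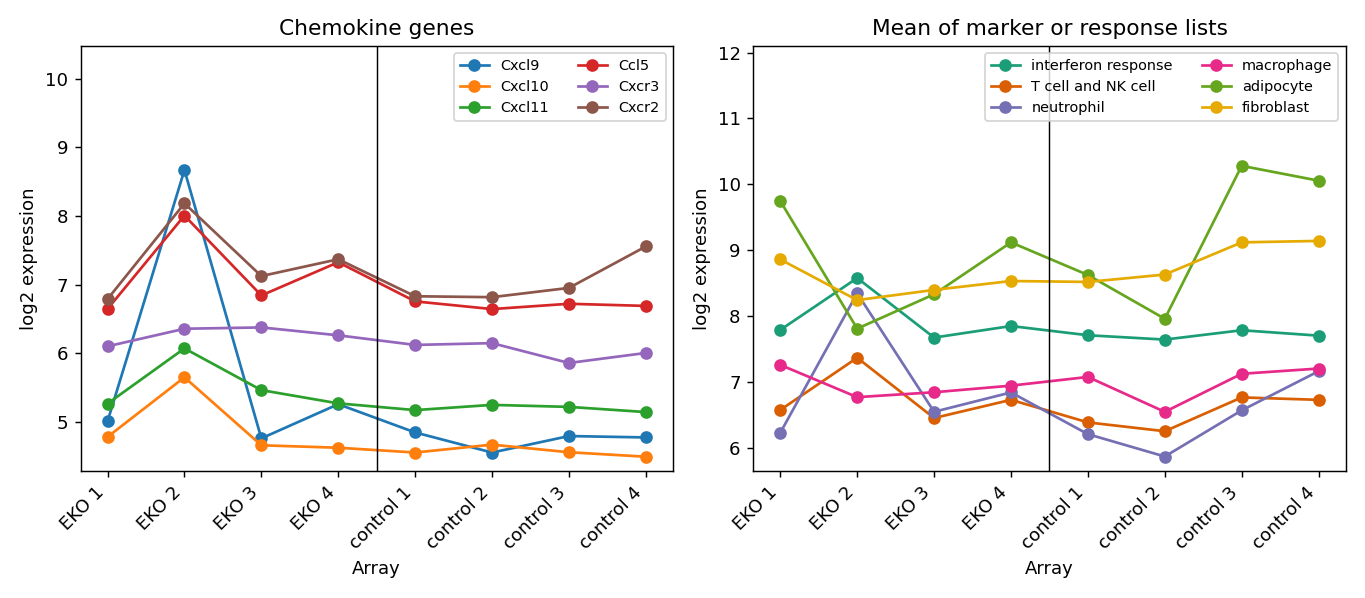
Log2 expression per array of 6 chemokine genes (left) and of the mean of 6 marker or response lists (right), EKO arrays before control arrays; lines only join values of the same gene or list. EKO array 2 is highest for Cxcl9, Cxcl10, Cxcl11, Ccl5 and Cxcr2 and for the interferon, T cell and NK cell, and neutrophil lists, and lowest for the adipocyte and fibroblast lists.

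Cxcl12, the ligand of Cxcr4 that holds progenitors and leukocytes in tissues, overlapped between the groups. It read 8.73, 8.91, 8.93 and 8.56 on EKO arrays, against 8.54, 9.16, 8.31 and 7.95 on control arrays. The EKO values lay inside the range of the control values, and limma put the difference at 0.30 (SE 0.23, 95% interval -0.23 to 0.82, adjusted p = 0.689). It was 0.12 without control array 4 and 0.52 without control array 2. Cxcr4, which endothelium in growing and arterial vessels also expresses, read 6.61, 6.48, 5.86 and 6.67 on EKO arrays and 6.22, 4.87, 5.49 and 6.95 on control arrays. Control arrays 2 and 3 were low and control array 4 was the highest of all, and the difference was 0.52 (SE 0.41, limma adjusted p = 0.690). It was 0.19 without control array 2 and 0.88 without control array 4. Cxcr4 averaged 6.14 over the 8 arrays and 5.88 in control arrays, so it passed the level filter only narrowly and through its EKO values. Ackr3, an atypical receptor that scavenges Cxcl12, has a probe set listed under its present and its older symbol and is therefore not counted among the 56. It averaged 8.18 ± 0.26 in EKO and 8.37 ± 0.18 in control arrays, a difference of -0.19 (SE 0.14, limma adjusted p = 0.683 in a fit that merged such symbols).

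Cx3cr1, the fractalkine receptor of monocytes and macrophages, read 9.30, 8.18, 8.02 and 9.01 on EKO arrays, against 8.40, 7.37, 7.64 and 8.34 on control arrays. The 2 highest arrays were EKO arrays 1 and 4 and the 2 lowest control arrays 2 and 3, while the rest overlapped. By limma it differed by 0.69 (SE 0.34, 95% interval -0.09 to 1.47, adjusted p = 0.587). Its ligand Cx3cl1, which inflamed endothelium displays on its surface, read 7.66, 8.58, 7.87 and 7.90 on EKO arrays and 7.24, 7.83, 8.10 and 7.67 on control arrays. EKO array 2 was highest again, and the difference of 0.29 (SE 0.23, limma adjusted p = 0.692) was 0.10 without it and 0.14 without control array 1. Macrophage markers averaged 7.26, 6.77, 6.84 and 6.94 on EKO arrays and 7.08, 6.55, 7.12 and 7.20 on control arrays, with 2 of 9 genes above the neg median. Csf1r, the receptor that macrophages need to survive, read 8.21, 6.69, 7.25 and 7.66 on EKO arrays and 7.48, 6.30, 6.78 and 7.48 on control arrays. Like Cx3cr1 it was highest on EKO array 1, but 6 of the 9 macrophage genes were highest on a control array. Adgre1, for example, read 6.42 to 6.90 on EKO arrays and 6.62 to 7.28 on control arrays. The part of macrophage content in the Cx3cr1 values was not tested. Ccr2, the receptor of inflammatory monocytes, differed by 0.19 (SE 0.19, limma adjusted p = 0.754). It differed by 0.081 without EKO array 2 and by 0.073 without control array 2.

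Cxcl16 and Cxcl14 overlapped between the groups. Cxcl16, a transmembrane chemokine that also binds oxidised lipoprotein, read 9.99, 9.79, 9.99 and 9.28 on EKO arrays and 9.17, 9.87, 9.64 and 9.39 on control arrays (limma adjusted p = 0.693). Cxcl14 read 6.99, 6.45, 6.57 and 6.95 on EKO arrays and 6.83, 6.27, 8.08 and 7.76 on control arrays. Control arrays 3 and 4 stood above the others, and the difference was -0.50 (SE 0.37, limma adjusted p = 0.681), -0.21 without control array 3, -0.32 without control array 4 and -0.82 without control array 2. The adipocyte list averaged 7.81 to 9.75 on EKO arrays and 8.62, 7.96, 10.28 and 10.06 on control arrays 1 to 4, with 5 of 6 measured genes above the neg median. The fibroblast list averaged 8.24 to 8.86 on EKO arrays and 8.52, 8.63, 9.12 and 9.14 on control arrays 1 to 4. Whether those tissues account for the Cxcl14 values was not tested. Cxcl17, a mucosal chemokine, read 6.30, 6.61, 6.32 and 6.38 on EKO and 6.29, 6.25, 6.15 and 6.21 on control arrays. The groups did not overlap, by a narrow margin, and the difference was 0.18 (SE 0.08, limma adjusted p = 0.577). It was 0.11 without EKO array 2 and 0.097 after quantile normalization.

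Monocyte-attracting CC ligands read low. Ccl2, the main monocyte chemoattractant, averaged 5.90 ± 0.10 in EKO and 5.84 ± 0.06 in control arrays, and Ccl7, Ccl8 and Ccl12, which share its receptor Ccr2, averaged 5.43, 4.88 and 4.85 in EKO and 5.42, 5.06 and 4.93 in control arrays. These 4 genes lie in a single run on chromosome 11 in the RefSeq order, and 0 of them passed the level filter. Of the other inflammatory CC ligands Ccl6, made by myeloid cells, read 8.07, 8.12, 7.75 and 8.03 on EKO and 8.03, 7.49, 8.26 and 8.72 on control arrays, and Ccl9 stayed within 7.14 and 7.51 on all 8 arrays. Ccl3 averaged 6.04 ± 0.34 in EKO and 5.65 ± 0.15 in control arrays, and Ccl4 5.16 ± 0.29 in EKO and 5.02 ± 0.17 in control arrays. Both were highest on EKO array 2.

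Neutrophil-attracting CXC ligands showed no separation of the groups. Cxcl3 was the only tested gene of the 5, with a difference of 0.05 (SE 0.10, limma adjusted p = 0.876). Cxcl1, which activated endothelium releases, averaged 6.03 ± 0.24 in EKO and 6.09 ± 0.20 in control arrays. Cxcl2, Cxcl5 and Cxcl15 averaged 5.26, 5.73 and 6.03 in EKO and 5.19, 5.73 and 5.87 in control arrays. The eosinophil chemokine Ccl11 read between 6.62 and 7.03 on EKO arrays and between 6.62 and 7.01 on control arrays. Ccl24 and Ccl26, which share its receptor, averaged 5.81 and 5.64 in EKO and 5.87 and 5.57 in control arrays.

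Homeostatic ligands overlapped as well. Ccl19, which guides T cells and dendritic cells through Ccr7, averaged 6.21 ± 0.24 in EKO and 6.03 ± 0.18 in control arrays, just under the level filter. Its receptor Ccr7 read 7.77 to 7.99 on EKO and 7.74 to 8.06 on control arrays, which limma put at 0.02 apart (SE 0.09, 95% interval -0.19 to 0.23, adjusted p = 0.948). Ccl25, the thymic and gut ligand of Ccr9, read 7.35 to 7.56 on EKO and 7.36 to 7.55 on control arrays, and the skin chemokine Ccl27a read 7.41 to 7.71 on EKO and 7.27 to 7.89 on control arrays. Of the remaining ligands Ccl20 averaged 5.89 ± 0.08 in EKO and 5.65 ± 0.14 in control arrays, and Ccl28, Ccl1 and Xcl1, the last made by T cells and NK cells, averaged 5.50, 5.01 and 6.59 in EKO and 5.41, 4.95 and 6.51 in control arrays. The pseudogene Ccl19-ps1 averaged 5.28 in EKO and 5.06 in control arrays. The copies of Ccl21 and further probe sets for Ccl19 and Ccl27a belong to 19 probe sets listed under several genes, which were not analysed here.

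Most receptors read low. Of the 20 receptor genes 2, Cx3cr1 and Ccr7, had a mean above the neg median, and 8 were tested. Ccr10, which skin-homing T cells carry, differed by 0.19 (SE 0.11, limma adjusted p = 0.626), and by 0.098 without control array 3. Ackr4, a scavenger of Ccl19, Ccl21 and Ccl25, read 6.32 to 6.79 on EKO and 6.07 to 6.76 on control arrays. Ackr1, a chemokine-binding protein of venular endothelium and red cells, averaged 5.33 ± 0.18 in EKO and 5.33 ± 0.09 in control arrays. Ackr2, listed under 2 symbols like Ackr3, averaged 6.44 ± 0.11 in EKO and 6.34 ± 0.05 in control arrays. The receptors under the level filter other than Ccr1 and Ackr1, namely Ccr1l1, Ccr3, Ccr4, Ccr6, Ccr8, Ccr9, Cxcr1, Cxcr5, Cxcr6 and Xcr1, had group means between 4.38 and 5.93, and all overlapped between the groups.

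**Figure D4:**
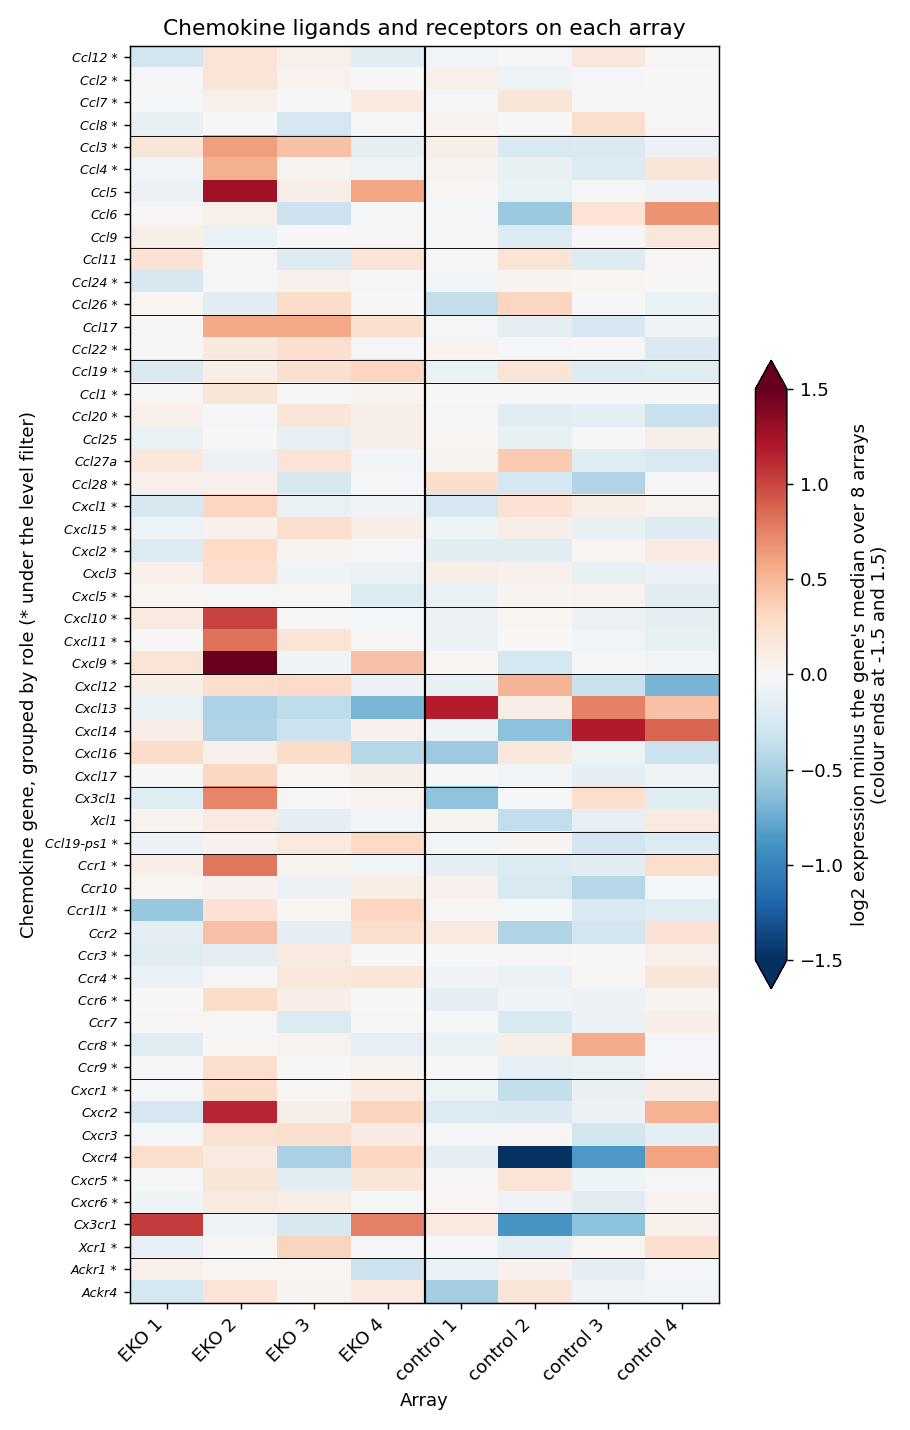
All 56 chemokine genes, grouped by role from top to bottom, on the 8 arrays: colour gives log2 expression minus the gene's median over the arrays, and an asterisk marks the 33 genes under the level filter. EKO array 2 stands out in Cxcl9, Cxcl10, Cxcl11, Ccl5, Cxcr2 and Ccr1, and Cxcl13 is lower on all EKO arrays than on any control array.

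Genes that act beside chemokines did not pass either. Of 22 tested genes of chemokine receptor signalling, such as G protein subunits, receptor kinases, the arrestin Arrb1 and small GTPases, 0 passed in either direction. In EKO aortas 11 read higher and the median difference was 0.00237. Grk2 and Arrb2 had no probe set listed under a single symbol. The smallest p values belonged to Gng2 (0.14), Pik3cg (0.16), Grk5 (-0.39) and Arrb1 (-0.12). Of 10 tested genes that process or present chemokines 0 passed and 2 read higher, with a median of -0.11. Sdc4, a heparan sulphate proteoglycan, differed by -0.28 (SE 0.09, unadjusted p = 0.0110, limma adjusted p = 0.511), and the heparan sulphate polymerase genes Ext1 and Ext2 and the sulphotransferase gene Hs2st1 by -0.29, -0.10 and -0.12. Of 9 tested NF-kB and cytokine genes 0 passed and 9 read higher (median 0.22). Those of smallest p were Csf1 (0.24), Il1b (0.41), Tnfaip3 (0.37) and Nfkbia (0.22). Without EKO array 2, 6 of the 9 read higher and the median was 0.05, with Csf1 at 0.11, Il1b at 0.29, Tnfaip3 at 0.24 and Nfkbia at 0.32. Of 9 tested interferon response genes 0 passed and 8 read higher, with a median of 0.31. Without EKO array 2, 8 of the 9 read higher and the median was 0.14. At a limma unadjusted p under 0.05 there were 3, Ifit1, Ifit3 and Usp18, beside 8.93% of all tested genes. In these 3 the groups did not overlap, by narrow margins for Ifit3 and Usp18, beside 6.08% of all tested genes. Smallest in p were Ifit1 (0.60), Ifit3 (0.67), Usp18 (0.41) and Irf1 (0.27). Without EKO array 2 these 4 stood at 0.39, 0.44, 0.24 and 0.16. Gbp2 had the largest rise (0.84, and 0.14 without EKO array 2). Rsad2 was the gene that read lower (-0.75, and -0.98 without that array). EKO array 2 was the highest array for 8 of those 9.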

How the data were processed

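Log2 expression values of 8 arrays were used as deposited. Per the labels, the authors computed them by the SST-RMA method of the Expression Console software, with no version or settings named. The array, an Affymetrix Mouse Transcriptome Array 1.0, was hybridised with product of 5 ng RNA. Arrays were grouped by their titles, and all columns belonged to them. The table held 72688 probe sets, and the 30604 with a single symbol were named through the platform annotation, repeats of a symbol counting as 1, with symbols updated through RefSeq GRCm38.p6. For the 429 symbols with several probe sets the one with the highest mean was used.

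The comparison used lmFit and eBayes of limma 3.58.1 (R 4.3.3) without covariates, and Benjamini-Hochberg adjustment over all 16232 tested genes. The fit was tested on simulated data. The number of arrays limits the precision, and p-values measure the spread between single aortas. Differences with tests are printed for the 10 tested chemokine genes of smallest p and for genes fixed by role, and for the 4 of smallest p in each pathway list. Cxcl16, Cxcr2 and the genes singled out on EKO array 2 were chosen after their values were seen. Members, lists and tests were chosen with earlier results of these data known. Alternatives covered the level filter, probe set choice, scaling, variance model, array weights, threshold, replicate block and leaving out each array.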

Additional observations from a re-analysis of the deposited data

Results flagged for a closer look

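Each group of 4 arrays was examined, for all 56 chemokine genes, for a highest or lowest array whose gap to the next exceeded Dixon's critical share of the group's range. Of the 112 groups 7 were marked, and chance marks about 1 in 20. EKO array 2 stood above the other EKO arrays for Cxcl9 (8.67, others 4.76 to 5.26), Cxcl10 (5.65, others 4.62 to 4.78) and Ccr1 (6.26, others 5.43 to 5.57). EKO array 3 was low for Ccr7 (7.77, others 7.98 to 7.99) and EKO array 4 for Ackr1 (5.06, others 5.40 to 5.45). Control array 4 was high for Ccr1 (5.74, others 5.26 to 5.34) and control array 2 for Ccl7 (5.56, others 5.37 to 5.39). All but Ccr7 lay under the level filter, and for Cxcl10, Ccr1, Ackr1 and Ccl7 the values lay below the neg control median on all arrays.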

How the results depend on the processing

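Under all 20 alternatives 0 chemokine genes and 0 of all tested genes passed the threshold, the threshold of 0.1 included. The median difference of the tested chemokine genes kept its sign, between 0.05 (filter at the neg control median) and 0.30 (filter at the 75th percentile), and between 0.09 and 0.19 with each array left out. The count at an unadjusted p under 0.05 was 3 in the fit reported and 5 without a filter. It was 0 and 1 with the filter at the 75th percentile and at the neg median, where fewer genes were tested. With an array left out it was 2 to 5 (5 without EKO array 1 or control array 2). Over all tested genes the share at that p was counted only in the fit reported (8.93%), so these counts have no background beside them. Differences of Cxcl3 and Ccr7 turned sign: Cxcl3 to -0.029 after quantile normalization (-0.021 to 0.099 with arrays left out), and Ccr7 to -0.0072 with array weights (-0.034 to 0.076 with arrays left out). The cause was not tested. The other 12 differences followed kept their direction, with adjusted p of 0.181 or more. With the replicate number as a block 0 genes passed, and Cxcl13 stood at -1.03 (limma adjusted p = 0.586). Cx3cr1, at a limma unadjusted p of 0.0761 in the fit reported, had 0.000895 with the block (adjusted p = 0.586). Arrays of the same number deviated together with r of -0.16, 0.21, -0.24 and 0.13 for numbers 1 to 4, across genes. These values share no sign, and the fit reported does not pair the arrays. Values under the neg control median limit what can be seen for most chemokine genes.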

Other observations

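The chemokine genes lie in runs along the chromosomes, which the choice by symbol did not use. By the RefSeq gene order, with at most 1 other protein-coding gene between neighbours, 7 receptor genes (Ccr9, Cxcr6, Xcr1, Ccr1, Ccr1l1, Ccr3 and Ccr2) form a run on chromosome 9, and runs of 6 (Ccl2, Ccl7, Ccl11, Ccl12, Ccl8 and Ccl1) and 5 CC ligand genes (Ccl5, Ccl9, Ccl6, Ccl3 and Ccl4) lie on chromosome 11. On chromosome 8 Ccl22, Cx3cl1 and Ccl17 form a run of 3, with differences of 0.15, 0.29 and 0.46. Without EKO array 2 these were 0.13, 0.10 and 0.39. Ccl22 lay under the level filter, and no gene of the run passed. Both runs on chromosome 11 held differences of either sign, such as Ccl5 (0.50) and Ccl6 (-0.13), or Ccl2 (0.06) and Ccl8 (-0.18).

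Without the level filter limma gave 5 of the 56 chemokine genes an unadjusted p under 0.05. The share of all genes at that p was counted only with the filter (8.93%), so the count is not read as a result. They were Cxcl13, Ccl17 and Cxcr3 and, among genes under the filter, Ccl20, a ligand of Ccr6 (0.24, unadjusted p = 0.0222, adjusted p = 0.546), and Ccl3 (0.38, unadjusted p = 0.0410, adjusted p = 0.549).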
